A study of Mus musculus with 17 samples.

Results

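The genes described here act in mitosis and in the passage from G2 into mitosis. Cells enter mitosis when cyclins A and B activate the kinase Cdk1. Kinetochores then attach chromosomes to the spindle, the spindle assembly checkpoint holds the cell until all are attached, and the anaphase-promoting complex destroys cyclin B and releases the sister chromatids before kinesins and a contractile ring divide the cell. Because most of these transcripts accumulate only in G2 and mitosis, their level in RNA from many cells is widely read as a measure of how many cells are dividing. In the thymic medulla, epithelial cells turn over continually, and cells that express Aire are generally described as maturing from dividing precursors. In bulk RNA such as this, fewer cells that express a gene and less RNA per cell cannot be told apart.

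Members were taken as a list of 38 genes, and a gene was measured where a probe set of the array named it and no other gene. That held for 37 of the 38, with 1 such probe set each. Ccnb1, a B-type cyclin, had none and was not analysed here. All 37 passed the filter on dim probe sets (above the 40th percentile of the array on at least 2 arrays), among 13842 genes tested of 19752 named by the array. The list was drawn up with results of these arrays already known, so its counts are set beside the same counts over all genes tested.

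Cells came from C57BL/6 mice in which Aire drives a reporter, Igrp fused to GFP (the Adig line), so every group carried the reporter. Thymic cells with much surface MHC class II but no CD45 or Ly51 were sorted, and RNA of each sample went onto 1 whole-transcript mouse gene array. Aire-knockout (KO) perinates gave 3 GFP+ samples, wild-type (WT) perinates 3 GFP+ and 2 GFP- samples, KO adults 3 GFP+ samples, and WT adults 3 GFP+ and 3 GFP- samples. Adults were 5 weeks old; perinates were labelled as 3 days old, while the series text gives a range that starts at birth. No KO GFP- cells were measured. The labels give neither the deleted part of Aire nor whether a sample was 1 animal or a pool, so the p-values cover the spread among these samples alone, part of which may be technical.

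Array medians ran from 144.5 to 157.1 on the linear intensity scale, and the 40th percentile, near which probe sets are close to background, from 96.16 to 112.1. That percentile was 96.16 to 102.5 on the KO arrays and 104.9 to 112.1 on the WT arrays, without overlap. This difference between arrays cannot be told apart from genotype. All 17 genes of a list of medullary epithelial markers, among them Epcam and keratins, were above the 40th percentile on every array of 5 groups. In perinate WT GFP- cells 16 of them were. That list includes H2-Aa, H2-Ab1 and Cd74, genes of the MHC class II system on which the cells were sorted. Its levels alone do not tell medullary from other epithelium. Aire read 4072 to 6196 on GFP+ arrays of both genotypes, against 270 to 351 in perinate and 495 to 930 in adult GFP- cells, so the Aire probe set is no check of the genotype. Samples 2 and 3 of the perinate KO group stood apart in sex-linked transcripts although all samples are labelled as mixed sex: the Y-linked Uty read 19.2 and 16.1 there, against 168.9 to 366.2 on the other 15 arrays. Results with this group are therefore also given with perinate KO array 1 alone.

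Mitotic transcripts were highest in perinate KO GFP+ cells and lowest in adult WT GFP- cells. The perinate KO group had the highest mean intensity for 36 of the 37 genes, the exception being Foxm1, which was highest in perinate WT GFP- cells. Adult WT GFP- cells had the lowest mean for all 37. Averaged over the 37 genes, log2 intensity was 9.53, 9.31 and 9.31 on the perinate KO arrays, 8.72, 9.16 and 8.91 on the perinate WT GFP+ arrays and 8.53 and 8.38 on the perinate WT GFP- arrays. In adults it was 8.87, 8.97 and 8.54 on the KO arrays, 8.54, 8.61 and 8.72 on the WT GFP+ arrays and 6.96, 7.15 and 7.45 on the WT GFP- arrays. The perinate KO and adult GFP- arrays each lay outside the range of all other groups, and the adult KO and adult WT GFP+ arrays overlapped.

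**Figure D1:**
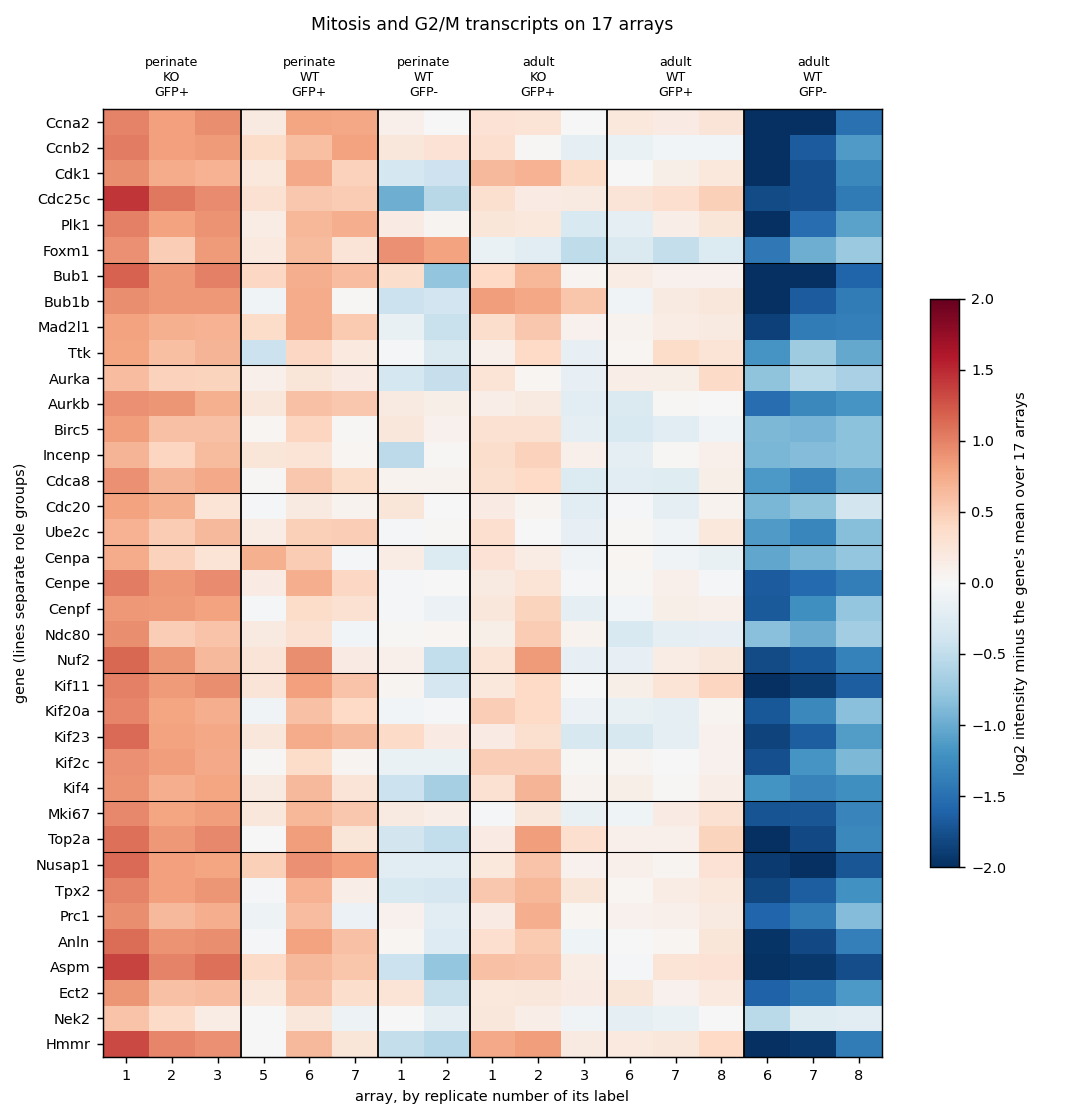
Heat map of log2 intensity for the 37 measured genes (down, in role groups) on 17 arrays (across, by group and replicate number), each gene centred on its own mean over the arrays. Red marks values above that mean and blue values below it; the 3 adult WT GFP- arrays are blue for every gene and the 3 perinate KO arrays red for every gene.

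A member of each role group shows the range over all arrays. Ccnb2, a B-type cyclin that activates Cdk1, read 2915, 2549 and 2597 in perinate KO GFP+ cells, 1849, 2183 and 2501 in perinate WT GFP+ cells, 1674 and 1762 in GFP- cells of perinate WT mice, 1809, 1459 and 1266 in adult KO GFP+ cells, 1313, 1386 and 1383 in adult WT GFP+ cells and 327, 454 and 654 in adult WT GFP- cells. The checkpoint protein Mad2l1 read 2272, 2128 and 2103 in perinate KO GFP+ cells, 1692, 2178 and 1885 in perinate WT GFP+ cells, 1182 and 963 in GFP- cells of perinate WT mice, 1657, 1894 and 1390 in adult KO GFP+ cells, 1377, 1453 and 1482 in adult WT GFP+ cells and 357, 497 and 504 in adult WT GFP- cells. In both genes the adult GFP- arrays lay below all others, and the adult KO and adult WT GFP+ arrays overlapped. The perinate KO arrays all lay above the perinate WT GFP+ arrays in Ccnb2 and overlapped them in Mad2l1.

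Aurkb, the kinase of the chromosomal passenger complex, read 1177, 1154 and 1019 in perinate KO GFP+ cells, 735, 944 and 907 in perinate WT GFP+ cells, 706 and 678 in GFP- cells of perinate WT mice, 686, 711 and 539 in adult KO GFP+ cells, 512, 637 and 626 in adult WT GFP+ cells and 217, 257 and 277 in adult WT GFP- cells. Ube2c, the ubiquitin-conjugating enzyme that works with the anaphase-promoting complex, read 1389, 1212 and 1335 in perinate KO GFP+ cells, 948, 1193 and 1209 in perinate WT GFP+ cells, 832 and 865 in GFP- cells of perinate WT mice, 1079, 856 and 762 in adult KO GFP+ cells, 871, 819 and 988 in adult WT GFP+ cells and 392, 345 and 475 in adult WT GFP- cells. Cenpa, the histone that marks centromeres, read 435, 357 and 313 in perinate KO GFP+ cells, 423, 368 and 255 in perinate WT GFP+ cells, 285 and 214 in GFP- cells of perinate WT mice, 315, 286 and 246 in adult KO GFP+ cells, 265, 245 and 233 in adult WT GFP+ cells and 127, 137 and 151 in adult WT GFP- cells. The perinate KO and perinate WT GFP+ arrays overlapped in Cenpa, and in Ube2c the lowest KO array lay just above the highest WT array.

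Kif11, the kinesin that pushes spindle poles apart, read 1263, 1134 and 1196 in perinate KO GFP+ cells, 754, 1105 and 937 in perinate WT GFP+ cells, 656 and 500 in GFP- cells of perinate WT mice, 731, 829 and 628 in adult KO GFP+ cells, 682, 758 and 846 in adult WT GFP+ cells and 152, 169 and 200 in adult WT GFP- cells. Mki67, the Ki-67 antigen of dividing cells, read 2052, 1833 and 1891 in perinate KO GFP+ cells, 1244, 1681 and 1543 in perinate WT GFP+ cells, 1194 and 1157 in GFP- cells of perinate WT mice, 1044, 1235 and 960 in adult KO GFP+ cells, 998, 1191 and 1308 in adult WT GFP+ cells and 319, 323 and 423 in adult WT GFP- cells. Ect2, the exchange factor that starts the cleavage furrow, read 1388, 1135 and 1155 in perinate KO GFP+ cells, 878, 1131 and 965 in perinate WT GFP+ cells, 915 and 555 in GFP- cells of perinate WT mice, 874, 885 and 849 in adult KO GFP+ cells, 892, 803 and 866 in adult WT GFP+ cells and 247, 276 and 339 in adult WT GFP- cells. In Kif11, Mki67 and Ect2 every perinate KO array lay above every perinate WT GFP+ array, in Kif11 and Ect2 only narrowly. Every adult GFP- array lay below every array of the other groups in each of these genes.

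The genes moved together from array to array within groups too. Perinate KO array 1 was the highest of its group for 37 of 37 genes, perinate WT GFP+ array 6 for 33, and arrays numbered 8 for 29 in adult WT GFP+ and 34 in adult WT GFP- cells. Perinate WT GFP+ array 5 was the lowest of its group for 30 genes and adult KO array 3 for 35. The median deviation of the members from their group mean reached -0.23 on the log2 scale on perinate WT GFP+ array 5, where the median of all genes tested was -0.003. Each gene correlated with the mean of the other members at 0.773 (Foxm1) to 0.994 (Anln), with a median of 0.974, over the 17 arrays. After group means were removed these correlations ran from 0.319 (Cenpa) to 0.984 (Hmmr), with a median of 0.83. The points share their arrays, so these are descriptions, and 1 array that is high or low carries all the members with it.

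Outside the list, the genes whose pattern over the 17 arrays was most like the members' mean were Spag5 (Pearson r = 0.986), Depdc1a (0.985), Kif22 (0.985), Racgap1 (0.98), C1qbp (0.98), Dlgap5 (0.979), Ncaph (0.978), Pclaf (0.978), Nol11 (0.978) and Cse1l (0.976). Of these 10, Spag5, Depdc1a, Kif22, Racgap1 and Dlgap5 belong to a second list of spindle, kinesin and cytokinesis genes, and Ncaph is a condensin subunit.

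Promoters of these genes share sequence features that the list did not use. Promoters of G2 and mitosis genes typically carry CCAAT boxes, bound by the factor NF-Y, and a cell cycle genes homology region (CHR), where the DREAM and MuvB complexes bind. Windows from 250 bases before to 50 after the annotated start were available from RefSeq (GRCm38.p6) for 31 of the 38 genes, Ccnb1 included, in 33 windows. In 16 of the 33 that start was the 5′ end of the gene as annotated, and in the others it was not. Positions and absences of matches depend on the start used. Both strands were searched for the CCAAT box, which reads ATTGG on the opposite strand. The CHR letters searched were TTTGAA, which reads TTCAAA on the opposite strand. Also searched was TTTAAA, which reads the same on either strand. Overlapping matches were all counted. Ect2 and Prc1 each had 2 windows that overlap and hold the same matches, so these windows and matches were counted 2 times. CCAAT stood in 26 of the 33 windows (78.8%), against 37.4% of all 32851 windows of the table, and 2 or more CCAAT in 57.6% against 11.7%. A CHR match stood in 28 (84.8%), against 27.6% of all windows, and both motifs in 72.7% against 10.7%. In 34 windows of an S phase list, CCAAT stood in 61.8% and a CHR match in 23.5%. Relative to the start, the median position of a member match was -69.5 bases for CCAAT and -16 bases for the CHR letters. Neither motif was found in 3 windows (9.09%, against 45.7% of all), those of Nuf2, Nusap1 and Mad2l1. A match here is a run of letters and not a measured binding site, and its absence says only that these letters are not in the window.

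The 5 windows below are those of the Cdk1 kinase and its cyclin Ccnb2, of Aspm and Kif11, which had the lowest adjusted p between GFP+ and GFP- adult cells among the genes with a window, and of Nusap1, which differed as clearly but holds neither motif. Each is written 5′ to 3′ along the gene's strand, and capitals mark the CCAAT and CHR letters on either strand. They lie at chr9:70421505-70421804 (minus strand), chr10:69352863-69353162 (minus), chr1:139454523-139454822 (plus), chr19:37376132-37376431 (plus) and chr2:119618048-119618347 (plus) in the order given.
Ccnb2: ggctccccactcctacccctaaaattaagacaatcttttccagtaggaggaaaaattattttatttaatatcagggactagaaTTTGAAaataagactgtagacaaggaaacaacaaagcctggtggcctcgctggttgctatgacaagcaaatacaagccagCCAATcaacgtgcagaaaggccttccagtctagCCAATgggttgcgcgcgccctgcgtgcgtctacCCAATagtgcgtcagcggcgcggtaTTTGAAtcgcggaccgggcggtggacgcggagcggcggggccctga
Cdk1: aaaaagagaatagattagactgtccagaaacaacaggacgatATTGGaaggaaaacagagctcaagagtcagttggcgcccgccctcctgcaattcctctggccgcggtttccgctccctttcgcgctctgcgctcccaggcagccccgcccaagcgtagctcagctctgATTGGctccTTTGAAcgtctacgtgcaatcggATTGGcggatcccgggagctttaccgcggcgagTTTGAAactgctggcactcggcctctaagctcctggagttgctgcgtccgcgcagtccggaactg
Aspm: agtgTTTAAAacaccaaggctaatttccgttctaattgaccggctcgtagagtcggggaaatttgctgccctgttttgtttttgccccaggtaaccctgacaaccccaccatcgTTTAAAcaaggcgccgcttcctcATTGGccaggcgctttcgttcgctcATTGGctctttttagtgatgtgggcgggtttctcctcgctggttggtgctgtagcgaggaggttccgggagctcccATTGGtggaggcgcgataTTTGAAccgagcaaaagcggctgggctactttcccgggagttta
Kif11: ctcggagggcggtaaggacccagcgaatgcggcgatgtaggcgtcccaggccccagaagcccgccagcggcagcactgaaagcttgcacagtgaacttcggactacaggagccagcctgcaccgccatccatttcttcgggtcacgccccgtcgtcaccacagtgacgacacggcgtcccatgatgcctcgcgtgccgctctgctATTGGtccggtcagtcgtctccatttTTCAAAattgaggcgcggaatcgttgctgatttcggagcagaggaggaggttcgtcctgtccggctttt
Nusap1: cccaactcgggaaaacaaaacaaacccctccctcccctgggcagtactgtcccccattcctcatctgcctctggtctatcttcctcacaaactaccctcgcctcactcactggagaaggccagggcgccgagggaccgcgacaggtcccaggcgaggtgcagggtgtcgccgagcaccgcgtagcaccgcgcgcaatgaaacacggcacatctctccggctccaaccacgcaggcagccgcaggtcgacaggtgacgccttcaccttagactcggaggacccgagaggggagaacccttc
The Ccnb2 window holds 3 CCAAT boxes at -87, -54 and -21 and CHR matches at -167 and 4. In Kif11 a single CCAAT box at -45 is followed by a CHR match at -19.

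**Figure D2:**
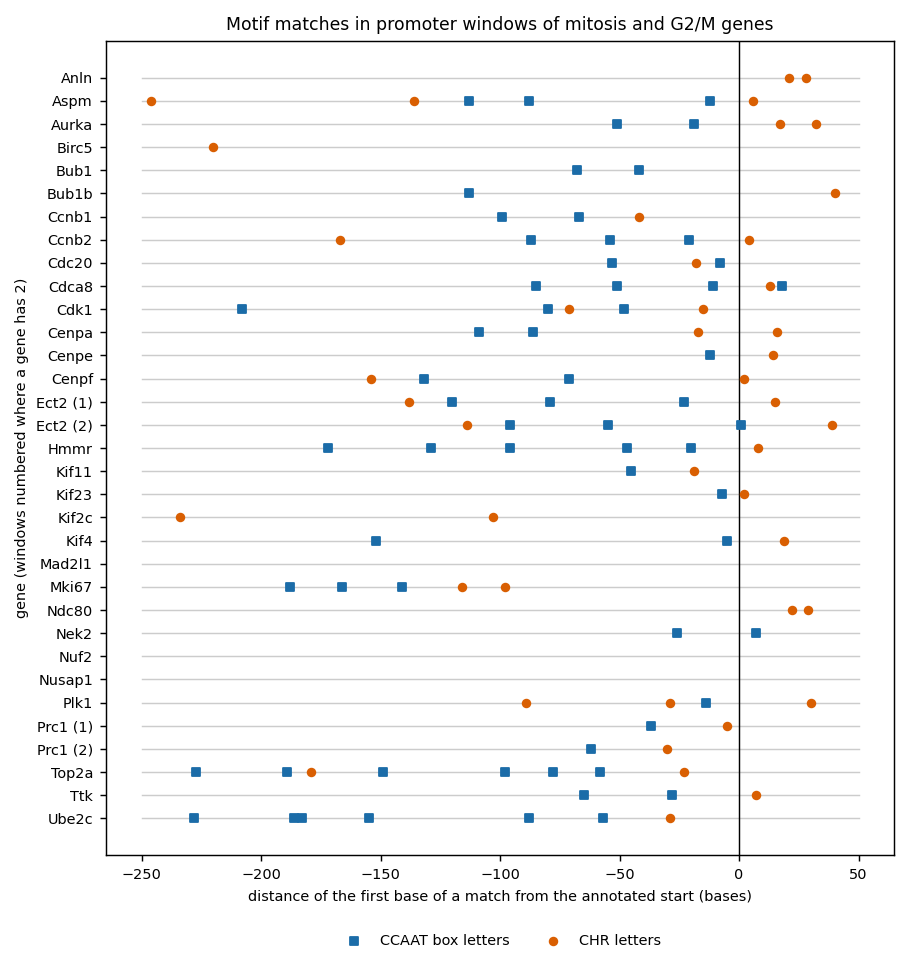
Positions of CCAAT (squares) and CHR (circles) matches in the 33 promoter windows, 1 line per window, as the distance in bases of the first base of a match from the annotated start (vertical line). Of the matches, 45 of 64 for CCAAT and 33 of 44 for CHR start within 100 bases before to 50 after the start. Matches in the overlapping windows of Ect2 and of Prc1 are counted in each window. Nuf2, Nusap1 and Mad2l1 have none.

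In adults, GFP+ cells held more of nearly every mitotic transcript than GFP- cells. Of the 37 genes 36 were higher (adjusted p under 0.05, limma with Benjamini-Hochberg adjustment over all genes tested), against 24.7% of all genes, and 0 were lower, against 20.1%. Only Nek2, a kinase that separates centrosomes, did not pass, although its arrays did not overlap either. For all 37 genes every GFP+ array exceeded every GFP- array, which held for 30.6% of genes tested. The median log2 difference was 1.57, a 2.96-fold difference, against 0.02 over all genes, and it ranged from 0.22 for Nek2 to 2.16 for Hmmr.

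The cyclin, kinase and entry genes were all higher. Ccna2, cyclin A2, read 1372, 1325 and 1421 in adult WT GFP+ cells and 257, 279 and 421 in adult WT GFP- cells, a 4.41-fold difference (adjusted p = 8.59e-08). Cdk1 read 1170, 1273 and 1358 in GFP+ and 288, 346 and 476 in GFP- cells, 3.5-fold (adjusted p = 2.88e-07). In both genes the highest GFP- array was number 8, and the groups did not overlap. Cdc25c, the phosphatase that switches Cdk1 on, read 233, 243 and 270 in GFP+ cells against 56, 57.3 and 72.6 in GFP- cells (log2 difference 2.01 ± 0.14 (SE), adjusted p = 2.6e-08). The GFP- values lie at background. Foxm1, the transcription factor that activates many G2 and mitosis genes, differed least in this group, at 1.62-fold (adjusted p = 0.00287).

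Spindle and cytokinesis genes included the changes with the lowest p. Aspm, a spindle pole protein, read 381, 468 and 473 in GFP+ cells against 98.1, 101 and 113 in GFP- cells, a 4.23-fold difference (adjusted p = 1.86e-08). Kif11 read 682, 758 and 846 against 152, 169 and 200, 4.39-fold (adjusted p = 3e-08). Nusap1, which binds spindle microtubules, read 706, 682 and 798 against 174, 142 and 199, 4.27-fold (adjusted p = 3.77e-08). No array of either group came near the other in these 3 genes. Ect2 averaged 854 in GFP+ and 287 in GFP- cells, and Mki67 1166 and 355. Checkpoint genes were higher by 2.28-fold (Ttk) to 4.15-fold (Bub1), with Mad2l1 at 1377, 1453 and 1482 against 357, 497 and 504. The chromosomal passenger complex and Aurora kinases, which correct chromosome attachments and run cytokinesis, differed less, by 1.6-fold (Birc5) to 2.36-fold (Aurkb). Ube2c differed 2.22-fold, and Cdc20, an activator of the anaphase-promoting complex, 1.57-fold.

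In adult GFP- cells 10 of the 37 genes (Cdc25c, Bub1, Ttk, Birc5, Cdca8, Cenpe, Ndc80, Nuf2, Kif4 and Hmmr) were below the 40th percentile on every array, and 20 were above it on every array. Folds of these 10 genes depend on the array's background. With the replicate numbers as a block, 36 genes were again higher, against 28.6% of all genes. The median difference was 1.36 without adult GFP- array 6 and 36 genes stayed higher whichever array was left out.

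In perinates the same comparison gave smaller differences. Of the 37 genes 17 were higher in GFP+ cells, against 22.9% of all genes, 1 was lower, against 20.5%, and 19 did not pass. The median log2 difference was 0.45, 1.37-fold, against 0 over all genes. In 23 genes every GFP+ array exceeded every GFP- array (28.9% of all genes) and in 1 the reverse held (27.6%). These counts rest on 2 GFP- arrays, and without array 2 of them 8 genes were higher (17.2% of all genes). Without GFP+ array 6 there were 9 (20.4%), and a fit of only these groups gave 10 (17.6%).

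Cdc25c read 239, 280 and 274 in perinate WT GFP+ cells against 98.1 and 132 in perinate WT GFP- cells, 2.32-fold (adjusted p = 1.01e-05). Aspm read 503, 608 and 571 against 288 and 225, 2.19-fold (adjusted p = 2.17e-05). Kif4, a kinesin that binds chromosome arms, read 247, 340 and 260 against 161 and 136, 1.89-fold (adjusted p = 0.000175). Nusap1 read 917, 1236 and 1155 against 567 and 563 (adjusted p = 0.000258). The groups did not overlap in these genes. Foxm1 was the only gene that fell. It read 313, 425 and 327 in GFP+ cells against 517 and 481 in GFP- cells, a log2 difference of -0.50 ± 0.19 (SE, adjusted p = 0.0387). That call was lost with array weights (adjusted p = 0.143), in a fit of only these groups and without any of 4 single arrays, although the groups did not overlap. Birc5, or survivin, and Cdc20 showed log2 differences of 0.01 and -0.06, neither past the test.

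The difference between GFP+ and GFP- cells was smaller in perinates than in adults for all 37 genes by sign. For 28 genes the test of the difference itself passed, against 9.27% of all genes lower and 10.7% higher, with a median of -1.03 on the log2 scale against -0.02 over all genes. All 6 cyclin, Cdk1 and entry genes and all 4 checkpoint genes were among the 28. For Mki67 the log2 difference of GFP+ over GFP- cells was 0.33 in perinates and 1.72 in adults (difference of differences -1.39 ± 0.21 (SE), adjusted p = 0.000258). For Kif11 it was 0.69 and 2.13 (adjusted p = 0.00033), for Ccna2 0.53 and 2.14 (adjusted p = 0.000374) and for Cenpe, the kinetochore kinesin, 0.45 and 1.57 (adjusted p = 0.000618). The 9 genes that did not pass were Cdc20, Nuf2, Kif20a, Ndc80, Kif4, Incenp, Aurka, Cenpa and Nek2. Leaving out single arrays gave 19 to 31 genes.

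**Figure D3:**
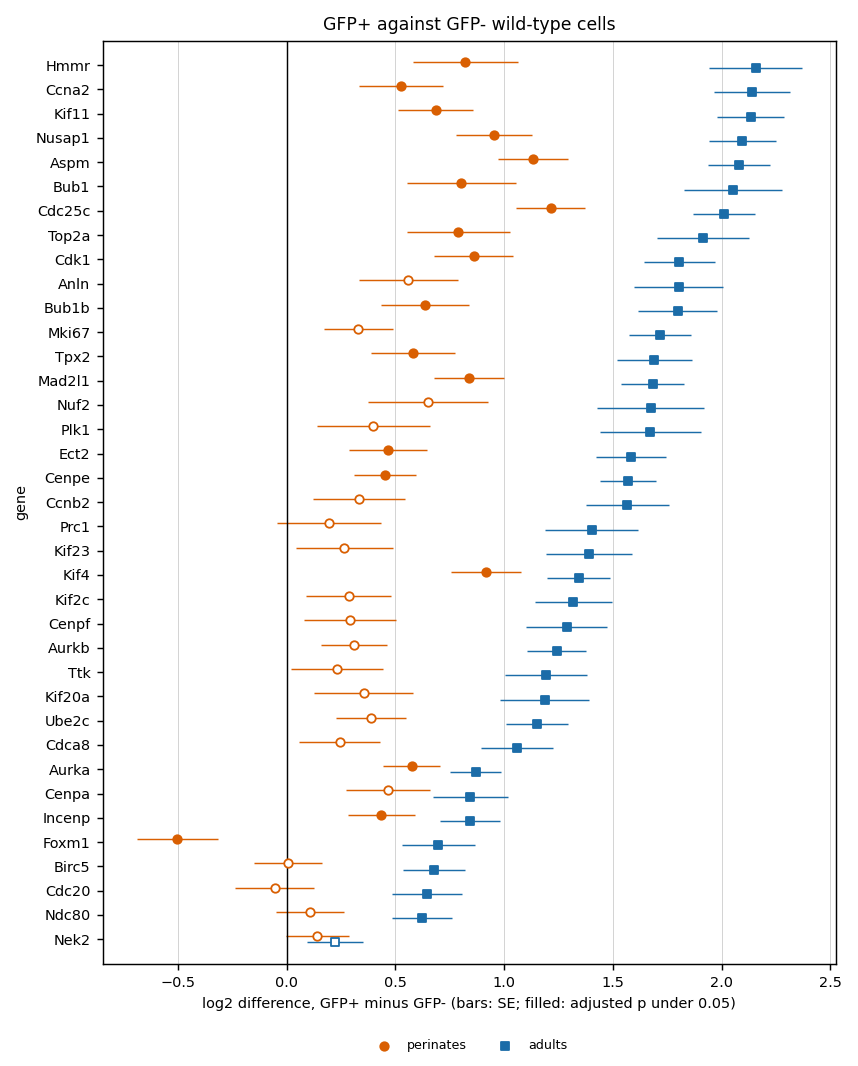
Log2 difference of GFP+ minus GFP- WT cells for each of the 37 genes in perinates (circles) and adults (squares), with bars of 1 standard error and filled marks where the adjusted p was under 0.05, ordered by the adult value. The adult mark lies right of the perinate mark in every gene, and Foxm1 in perinates lies left of 0 with a filled mark.

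Perinate GFP- cells differed from the other sorts in markers of cortical epithelium, the cells on which Ly51 is a surface marker. All 8 of these markers were above the 40th percentile on both arrays, and their summed intensity was 16040 to 16330, against 6146 to 9779 in perinate WT GFP+ and 7555 to 8844 in adult WT GFP- cells. Of the 8, 7 were lower in GFP+ than in GFP- perinate cells, among them Cxcl12 (log2 difference -3.05) and the protease Prss16 (732 against 3192). The other, Tbata, averaged 2635 in GFP+ against 1825 in GFP- perinate cells and was not called. Tbata averaged 3696 in adult WT GFP- cells, where Cxcl12 averaged 101.6, so the sums are weighted by it. The 7 markers of immature and basal medullary epithelium summed to 18080 to 18090 there, against 7908 to 13880 in perinate WT GFP+ and 10250 to 14870 in adult WT GFP- cells. The part of these cells in the mitotic levels was not tested. The 16 thymocyte markers summed to 1476 to 1623 in perinate GFP- cells, against 1709 to 2268 in perinate WT GFP+ and 1654 to 2903 in adult GFP- cells. Of these 16, 4 were above the 40th percentile on both perinate GFP- arrays and 10 below it on both. Cd3e averaged 197.7 there and Cd3d 51.9.

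Age separated the GFP- cells most. Of the 37 genes 35 were higher in perinate than in adult WT GFP- cells, against 22.1% of all genes, and 0 were lower, against 24.2%. The median log2 difference was 1.27, 2.41-fold, against 0.02 over all genes. All 37 had every perinate array above every adult array (30.4% of all genes, with 30.1% the other way). Aurka, the spindle pole kinase, and Nek2 did not pass. Mki67 read 1194 and 1157 in perinate GFP- cells against 319, 323 and 423 in adult GFP- cells, 3.34-fold (adjusted p = 2.22e-07). Cenpe read 226 and 229 against 72.6, 78.3 and 88, the adult values at background (adjusted p = 3.08e-07). Ccna2 read 1276 and 1178 against 257, 279 and 421, 3.94-fold (adjusted p = 4.48e-07), and Foxm1 517 and 481 against 102, 140 and 165, 3.75-fold (adjusted p = 4.54e-07). In all 4 genes the adult arrays followed the order noted above, with array 8 highest. Leaving out single arrays gave 34 to 35 genes. In the same cells 6 of the 8 cortical markers were higher and 1 lower than in adults, and 5 of the 7 immature and basal medullary markers were higher. Of the 17 medullary markers 11 were lower, with sums of 56430 to 58140 in perinate and 68050 to 71140 in adult GFP- cells. These sums are weighted by H2-Aa, H2-Ab1 and Cd74, of the MHC class II system used in the sort. They averaged 8075, 8229 and 9008 in perinate and 9853, 9934 and 10800 in adult GFP- cells. Aire, which drives the GFP reporter, is also on the medullary list, and Krt5 and Krt14 are on both the medullary and the basal list. Of 10 tested dendritic cell and macrophage markers 8 were lower, and the 13 measured summed to 1200 to 1460 in perinate and 2045 to 2710 in adult GFP- cells. The part of these markers' cells in the age difference was not tested.

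In WT GFP+ cells the ages were closer. Here 6 of 37 genes were higher in perinates, against 8.52% of all genes, 0 were lower, against 13.6%, and the median log2 difference was 0.35, 1.28-fold, against -0.001. The 6 were Foxm1, Aurkb, Nusap1, Ccnb2, Kif23 and Cenpe. Foxm1 read 313, 425 and 327 in perinates against 224, 197 and 227 in adults, 1.63-fold (adjusted p = 0.00679). Aurkb read 735, 944 and 907 against 512, 637 and 626, 1.45-fold (adjusted p = 0.00944). Ccnb2 read 1849, 2183 and 2501 against 1313, 1386 and 1383, 1.59-fold (adjusted p = 0.0186), and Nusap1 917, 1236 and 1155 against 706, 682 and 798 (adjusted p = 0.0119). The groups did not overlap in these genes, and in 12 genes in all every perinate array exceeded every adult array (17.8% of all genes, against 21.8% the other way). Between alternatives the count ran from 3 (without adult WT GFP+ array 6, 6.13% of all genes) to 16 (each array centred on the median of the genes tested, 14.5%), with 11 without perinate array 5 (6.65%) and 13 with quantile normalization (12.6%).

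In KO GFP+ cells most of the genes were higher in perinates. Of 37 genes 27 were called higher, against 13.4% of all genes, and 0 were lower, against 12.6%, with a median log2 difference of 0.58, 1.49-fold, against -0.01. Whether this differs from the age difference in WT GFP+ cells is the same contrast as the KO difference between ages, in which 0 of 37 genes passed. In 31 genes the groups did not overlap (22.5% of all genes). Cdc25c read 519, 402 and 374 in perinate KO cells against 241, 216 and 219 in adult KO cells, 1.9-fold (adjusted p = 0.000219). Cenpe read 471, 422 and 443 against 261, 280 and 223, 1.75-fold (adjusted p = 0.000278). Foxm1 read 516, 386 and 493 against 250, 233 and 194, 2.05-fold (adjusted p = 0.000325), and Mki67 2052, 1833 and 1891 against 1044, 1235 and 960, 1.79-fold (adjusted p = 0.000497). Adult KO array 3 was low for 35 members, and without it 11 genes were higher (8.09% of all genes). Without perinate KO array 1 there were 16 (9.73%), and with that array alone 14 (5.98%). Of 7 markers of immature and basal medullary epithelium 6 were higher in perinate than in adult KO cells and 0 lower, with a median log2 difference of 0.85 and summed intensities of 11510 to 13670 in perinate and 7333 to 9261 in adult KO cells. Their part in the result was not tested.

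**Figure D4:**
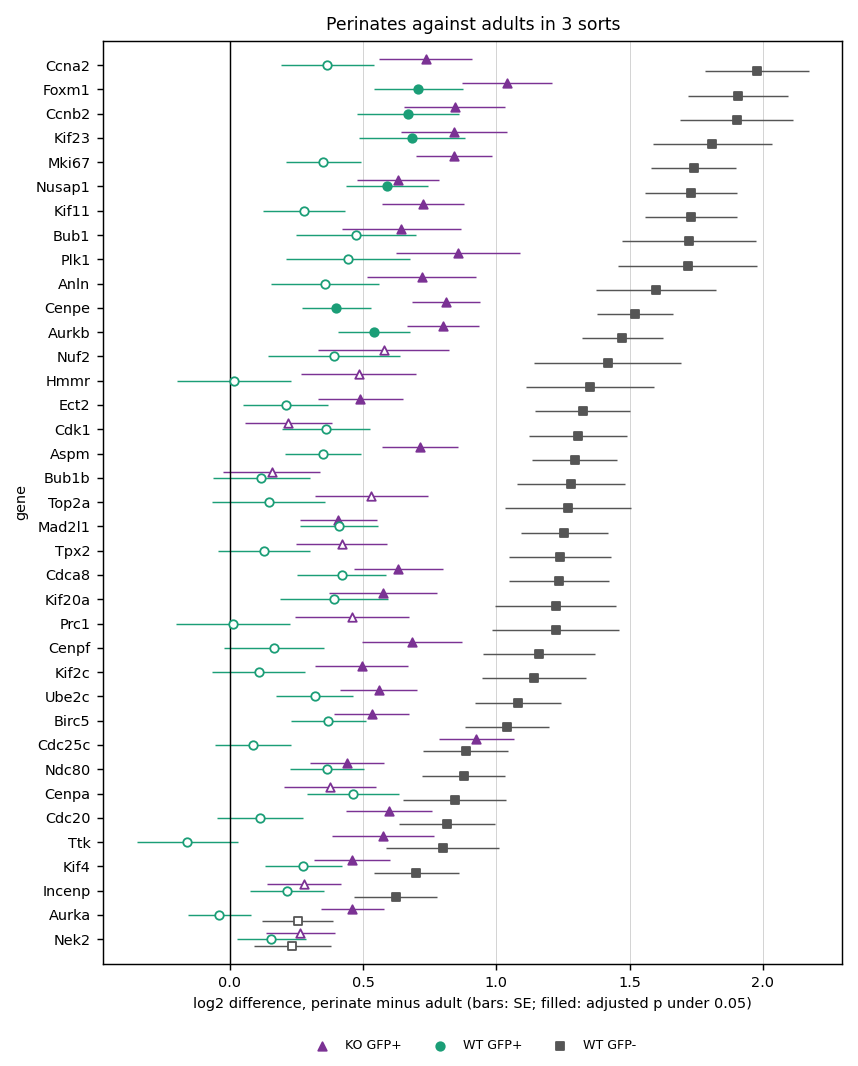
Log2 difference of perinates minus adults for each of the 37 genes in KO GFP+ (triangles), WT GFP+ (circles) and WT GFP- cells (squares), with bars of 1 standard error and filled marks where the adjusted p was under 0.05, ordered by the WT GFP- value. The GFP- marks reach 1.98 for Ccna2, the KO marks lie between 0.16 and 1.04 and the WT GFP+ marks between -0.16 and 0.71.

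Loss of Aire went with higher mitotic transcripts in perinates. Of the 37 genes 19 were higher in KO than in WT GFP+ perinate cells, against 13.5% of all genes, 0 were lower, against 13%, and 18 did not pass. All 37 differences were positive, and in 30 genes every KO array exceeded every WT array (24.9% of all genes). The median log2 difference was 0.44, 1.36-fold, against 0.09 over all genes, a shift of all genes that became 0.148 with arrays centred on all probe sets. The KO arrays also had lower 40th percentiles than the WT arrays, which cannot be told apart from genotype.

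All 5 passenger complex and Aurora genes were among the 19, with log2 differences of 0.34 (Aurka) to 0.50 (Birc5). Cdc25c read 519, 402 and 374 in KO cells against 239, 280 and 274 in WT cells, 1.62-fold (adjusted p = 0.00184). Aspm read 987, 772 and 832 against 503, 608 and 571, 1.54-fold (adjusted p = 0.00448). Cenpe read 471, 422 and 443 against 258, 381 and 306, 1.43-fold (adjusted p = 0.00756). Kif2c, a kinesin that takes microtubules apart, read 445, 420 and 398 against 240, 306 and 247, 1.6-fold (adjusted p = 0.00921). Hmmr, a microtubule-binding spindle protein, had the largest difference, 1.71-fold (adjusted p = 0.0137). Groups did not overlap in Cdc25c, Aspm, Cenpe and Kif2c. Among the cyclin, Cdk1 and entry genes only Cdc25c passed: Ccna2 read 2366, 2096 and 2266 in KO cells against 1339, 2036 and 2021 in WT cells (log2 difference 0.34 ± 0.17, SE, adjusted p = 0.153).

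The number of genes called here rested on few arrays. KO array 1 was the highest of its group for every gene, and without it 6 genes were higher, against 12.7% of all genes. Without WT array 5, the lowest of its group for 30 genes, there were 5 (7.13% of all genes), without WT array 7 there were 8 (11.2%), and without WT array 6 there were 24 (14.2%). With KO array 1 alone against the 3 WT arrays, 4 genes were higher, against 1.27% of all genes, and the median difference was 0.60. In that fit the lone array is assumed to vary like arrays of the other groups, and it was the highest of its group for every gene. Quantile normalization gave 10 (11.3% of all genes) and centring on the genes tested 12 (7.59%). Of the 19 calls 4 held under every alternative that kept more than 1 KO array, and those of Cdc25c and Aspm also with array 1 alone. Of 10 tested markers of dendritic cells and macrophages 1 was higher and 5 were lower in KO cells, against 13.5% and 13% of all genes. The 13 measured markers of these cells summed to 2167 to 2559 in perinate KO and 2149 to 2271 in perinate WT GFP+ cells, with 5 and 7 of them above the 40th percentile on every array. The sums are weighted by Fcer1g, which averaged 1081 in perinate KO and 537.8 in perinate WT GFP+ cells. They do not show the 5 markers that were lower. The part of these markers' cells in the result was not tested.

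In adults few of the genes differed between KO and WT GFP+ cells. Of the 37 genes 2 were higher, against 9.06% of all genes, and 0 were lower, against 10.8%. Neither count was a larger share than that of all genes. The median log2 difference was 0.19, against 0.06 over all genes. Bub1b, the checkpoint protein BubR1, read 588, 565 and 482 in adult KO cells against 313, 373 and 387 in adult WT cells, 1.53-fold (adjusted p = 0.025). Ndc80, of the kinetochore's microtubule attachment complex, read 178, 233 and 173 against 133, 144 and 147, 1.37-fold (adjusted p = 0.03). Cdk1 read 1827, 1888 and 1510 against 1170, 1273 and 1358 and did not pass (adjusted p = 0.0618). Birc5 read 171, 171 and 121 against 112, 118 and 131 (adjusted p = 0.105). Groups overlapped in Birc5 and not in the other 3 of these genes. In all, 4 genes had KO arrays above every WT array, a smaller share than the 23.4% of all genes. Neither called gene held when any of the adult WT arrays 6 and 7 or KO array 2 was left out, and 5 genes were higher without KO array 3 (8.16% of all genes).

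The KO difference itself was not shown to differ with age. Of 37 genes 0 passed the test in either direction, against 0.722% of all genes higher and 0.484% lower. By limma's unadjusted test 6 of the 37 had p under 0.05, no larger a share than the 2398 of all 13842 genes tested. The median difference of differences was 0.28, against 0.02 over all genes, and 0.44 with perinate KO array 1 alone. Cdc25c came nearest, with a KO difference of 0.70 in perinates and -0.14 in adults (adjusted p = 0.051). It passed with no filter (adjusted p = 0.0483), with array weights (0.0181) and in a fit of only these groups. Aurka (0.34 and -0.16, adjusted p = 0.137), the checkpoint kinase Ttk (0.63 and -0.11, adjusted p = 0.173) and Mki67 (0.38 and -0.11, adjusted p = 0.226) followed.

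**Figure D5:**
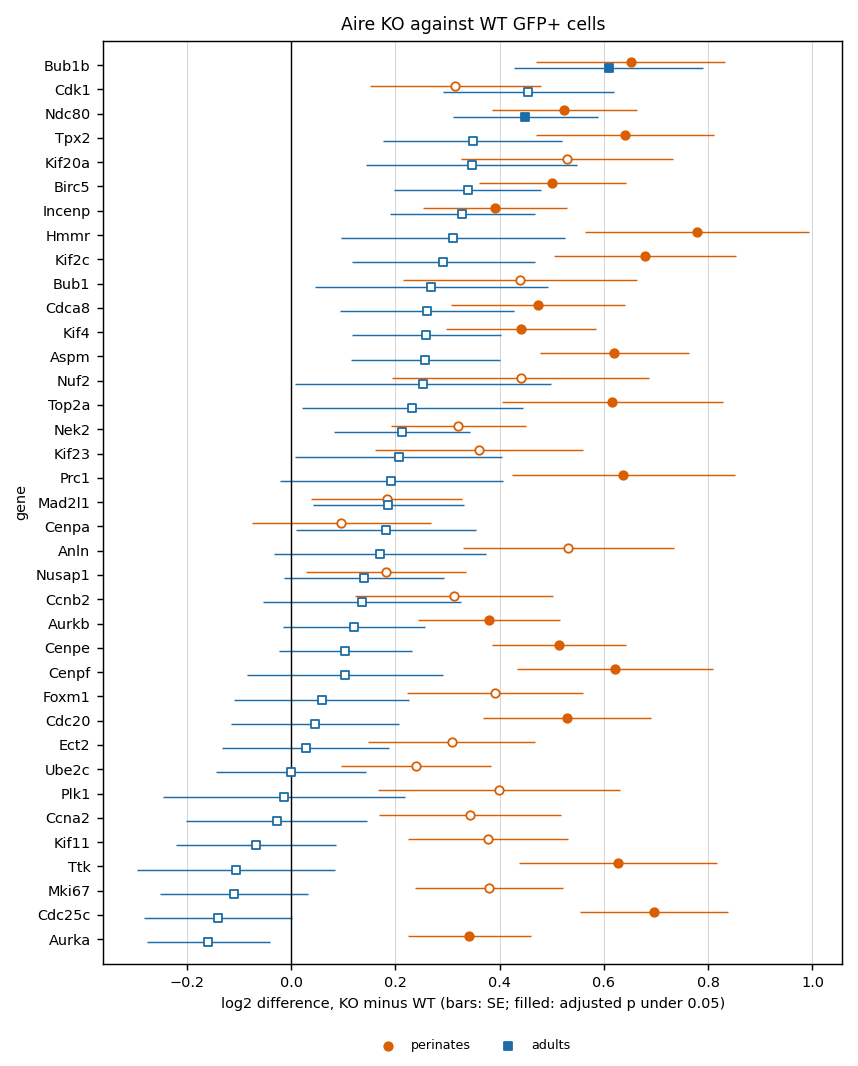
Log2 difference of KO minus WT GFP+ cells for each of the 37 genes in perinates (circles) and adults (squares), with bars of 1 standard error and filled marks where the adjusted p was under 0.05, ordered by the adult value. All perinate marks lie right of 0, 19 of them filled; of the adult marks 29 lie right of 0 and only Bub1b and Ndc80 are filled.

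Comparisons that share a group are not independent of each other: the adult WT GFP+ arrays enter the KO, GFP and age comparisons, and the perinate WT GFP+ arrays likewise. Agreement between these lists of calls is therefore not given as a result.

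Other genes of the cell division machinery, in lists also drawn up with earlier results known, were counted in the same fit. Over all genes tested, the share called higher was 24.7% between GFP+ and GFP- adult cells, 22.9% in perinates, 22.1% between perinate and adult GFP- cells and 13.5% between perinate KO and WT cells, and the share called lower was 20.1%, 20.5%, 24.2% and 13% in the same order. Of 30 further checkpoint and kinetochore genes, 24 were higher in GFP+ than in GFP- adult cells, 6 in perinates, 24 in perinate than in adult GFP- cells and 11 in perinate KO than in WT cells, with 0 lower in each. Cenpn, of the inner kinetochore, averaged 557 in perinate and 146 in adult GFP- cells. Of 38 further kinesin, spindle and cytokinesis genes the corresponding counts were 27, 10, 31 and 20 higher, and 1, 2, 0 and 0 lower. In the perinate GFP comparison the counts of both lists, 6 of 30 and 10 of 38, were near the share of all genes. Depdc1a averaged 302 in perinate KO against 162 in perinate WT GFP+ cells. All 8 condensin genes, which compact chromosomes, were higher in perinate than in adult GFP- cells, and 7 in GFP+ than in GFP- adult cells. Of 12 cohesin genes, which hold sister chromatids together, 5 were higher and 1 lower in the adult GFP comparison, against 24.7% and 20.1% of all genes, and 0 were called in perinate KO cells.

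Regulators of entry and exit gave calls in both directions, to be read against the same shares of all genes. Of 19 genes of the anaphase-promoting complex and its regulators, 11 were higher and 1 lower in GFP+ than in GFP- adult cells, and 7 were higher in perinate KO than in WT cells. Fbxo5, the inhibitor Emi1 of that complex, averaged 250 in perinate KO against 117 in perinate WT GFP+ cells (log2 difference 1.10). Of 14 further genes that control entry into mitosis, 6 were higher and 1 lower in the adult GFP comparison, and 9 were higher in perinate than in adult GFP- cells. Among 7 tested cyclin-dependent kinase inhibitors 1 was higher and 3 were lower in perinate than in adult GFP- cells. Cdkn2b, which blocks the G1 kinases, averaged 169 against 515 and Cdkn2c, of the same family, 97.5 against 289. In WT GFP+ cells Cdkn2c averaged 145 in perinates and 539 in adults (log2 difference -1.91). Of 23 E2F, MuvB and MYB regulators 13 were higher and 2 lower in perinate than in adult GFP- cells; E2f8, a repressor of the E2F family, averaged 622 against 107 (log2 difference 2.54).

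S phase genes were counted too. Of 34 tested, 29 were higher in GFP+ than in GFP- adult cells, 7 were higher and 1 lower in perinates, 31 were higher in perinate than in adult GFP- cells, 24 in perinate than in adult KO cells (13.4% of all genes), 15 in perinate than in adult WT GFP+ cells (8.52% of all genes) and 12 in perinate KO than in WT cells. The 7 of 34 in the perinate GFP comparison were no more than the share of all genes, 22.9%. Their median log2 difference between GFP+ and GFP- adult cells was 0.72, against 1.57 for the mitosis and G2/M genes. These medians are differences and not levels, and the 2 lists were not tested against each other.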

How the data were processed

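RNA of 17 sorted samples was measured on 1 array each. Per the submitters' processing notes, the authors made the deposited probe set intensities, which are on a linear scale, with Affymetrix Power Tools and RMA; the sources used here give no versions or filters, nor which arrays were normalized together. Of 24922 probe sets, 21425 had 1 gene symbol in the platform annotation. A gene with several took the one of highest mean intensity, and 13842 genes above the 40th percentile of their array on at least 2 arrays were tested. The log2 of each intensity was taken, without a pseudocount. A single model of 6 group means over all 17 arrays was fitted with limma 3.58.1 in R 4.3.3, with 11 residual and 5.52 prior degrees of freedom, and p-values of the 9 comparisons were adjusted by the Benjamini-Hochberg method over all genes tested. A gene was called at an adjusted p under 0.05. Fits were also tested on simulated data, with an outcome that is not given here. The number of arrays, 2 or 3 a group, limits the precision.

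The members, the other lists and the comparisons were chosen with earlier results of these data known. Values on every array are given for up to 4 members with the lowest adjusted p in a comparison. The brightest member of each role group (Ccnb2, Mad2l1, Aurkb, Ube2c, Cenpa, Kif11, Mki67 and Ect2) is also given on every array. From other lists up to 3 called genes with the largest difference may be named, and of all genes the 10 most correlated with the members. A few further members were named after their values were seen.

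Adult WT GFP+ and GFP- samples of the same number deviated together (r = 0.503, 0.442 and 0.188 over genes), least for number 8. The main model did not use these pairs, which entered only the alternative fit with a replicate block. Perinate and adult KO samples share only a number. Alternatives were quantile normalization, centring of arrays, other filters, means over probe sets, array weights, limma with trend and robust moderation, fits of only the groups compared, the replicate block, each array left out and perinate KO array 1 alone. Centring on the genes tested was added after seeing the data.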

Additional observations from a re-analysis of the deposited data

Results flagged for a closer look

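For 28 of the 37 genes the difference between GFP+ and GFP- WT cells itself differed with age, by the interaction term of the limma fit with an adjusted p under 0.05. Each value is the log2 difference in perinates minus that in adults, and all are negative. Among cyclin, Cdk1 and entry genes it was -1.61 for Ccna2, -1.27 for Plk1, -1.23 for Ccnb2, -1.20 for Foxm1, -0.95 for Cdk1 and -0.80 for Cdc25c. Checkpoint genes gave -1.25 for Bub1, -1.16 for Bub1b, -0.96 for Ttk and -0.85 for Mad2l1. Passenger complex genes gave -0.93 for Aurkb, -0.81 for Cdca8 and -0.67 for Birc5, and the anaphase-promoting complex partner Ube2c gave -0.76. At the kinetochore the values were -1.12 for Cenpe and -0.99 for Cenpf, and among kinesins -1.45 for Kif11, -1.13 for Kif23 and -1.03 for Kif2c. Mki67 gave -1.39 and Top2a -1.12. Spindle and cytokinesis genes gave -1.33 for Hmmr, -1.24 for Anln, -1.21 for Prc1, -1.14 for Nusap1, -1.11 for Tpx2, -1.11 for Ect2 and -0.94 for Aspm. These differences rest on 2 perinate GFP- arrays, and 16 of the 28 calls held under every alternative tried.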

How the results depend on the processing

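Of 447 recomputed counts and medians of the mitosis and G2/M genes 37 moved by more than 1.5 times or the spread between arrays. No median changed sign in any setting, whereas a count of calls in a given direction cannot change direction. The cause was not tested unless the change itself removes arrays or genes. The share of all genes called changed with the setting too, so the counts here belong beside the shares given above. Where no share is given above, a count is not read as a result about these genes. In perinate KO against WT cells the 19 genes became 10 with quantile normalization, 12 with arrays centred on the genes tested (an alternative chosen after seeing the data), 12 with a filter at the 60th percentile and 4 with KO array 1 alone, and 5 to 24 with an array left out. In adult KO cells the 2 genes became 4 with arrays centred on all probe sets and with array weights, and 0 to 5 with an array left out. The KO effect between ages, 0 genes, became 1 with no filter, array weights or only the groups compared, in each case Cdc25c, and stayed 0 without any array. GFP+ against GFP- perinate cells gave 10 higher and 0 lower in a fit of only these groups, 0 lower with array weights, and 8 to 20 higher and 0 to 1 lower with an array left out. In adults the median difference ran from 1.36 to 1.65 with an array left out. The age difference gave, in WT GFP+ cells, 13 with quantile normalization, 16 centred on the genes tested and 3 to 11 with an array left out, and in KO cells 14 with array 1 alone and 11 to 27 with an array left out. Pairing by replicate block kept 36 genes in the adult GFP comparison and gave 31 in place of 27 between ages in KO cells, where samples share only a number. Calls that held under every alternative were 36 of 36 and 7 of 18 for GFP in adults and perinates, 33 of 35, 10 of 27 and 3 of 6 for age in GFP-, KO and WT GFP+ cells, and 2 of 19 and 0 of 2 for KO in perinates and adults. With KO array 1 alone, the lone array is assumed to vary like the other groups; leaving that fit aside, 11 of 27 and 4 of 19 held.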
